A study of Eriocheir sinensis with 6 samples.

Results

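The genes with the most abundant transcripts in crab muscle on both sides of the molt were described. The set was chosen by its measured values: every gene at 3000 FPKM or more in all 6 libraries, with a mean post-molt level between 0.33 and 3 times the mean pre-molt level, on any chromosome except CM024112.1, CM024108.1, CM024135.1, CM024166.1 and CM024162.1. FPKM are fragments counted per gene, scaled to gene length and to a library size, which here was below the fragment total. The rule found 69 of the 18729 genes listed, or 0.368% of them. Of these, 68 were predicted gene models and 1 was a gene model outside the predicted set, for which no chromosome was given.

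RNA-seq was performed on muscle of healthy farmed juvenile Chinese mitten crabs (Eriocheir sinensis), 3 crabs in the pre-molt period and 3 in the post-molt period, with 1 library per crab. Per the labels, the mean weight was 8.41 ± 1.47 g and the water was kept at 20 °C. All crabs were untreated and differed, as far as labelled, only in the molting stage. The study's methods name the walking legs as the source of muscle for molt-period crabs, and the leg or body part of the crabs used here was not stated. Fragments recovered from the FPKM numbered between 4168744 and 5117144 in the post-molt libraries, and between 5810068 and 6768310 in the pre-molt libraries.

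Striated muscle devotes much of its messenger RNA to a small number of genes. In arthropods these usually include the thick and thin filament proteins myosin, actin, tropomyosin and the troponins, the arginine kinase that buffers ATP, mitochondrial respiratory chain subunits and ribosomal proteins. A crustacean grows in steps. Before the molt the muscle of the large claws of some crabs is known to shrink so that the limb can be drawn out of the old shell, and muscle is rebuilt and lengthened inside the new, larger shell afterwards. The files do not pair the gene IDs with such names. None of the 18729 IDs (0) matched the reference gene table, and the name column held labels of the gene prediction alone (0 other names). The 69 genes are therefore described by chromosome, by length and by their place in the set by mean FPKM, where place 1 is the most abundant, and IDs are given for 4 of them. Without names, neither the genes that define muscle nor markers of other cell types could be looked up. In bulk muscle, fewer cells of a type and less RNA per cell cannot be told apart.

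Since the levels and the ratio of the stages chose the set, its values in this contrast are descriptions without a test. Over the 6 libraries the members ranged from place 9 to place 126 of the whole table by mean FPKM, and 60 of them were among the 100 genes with the highest means. The lowest single value was 3002 FPKM and the highest 75521 FPKM. At these levels counting error was small: the fewest fragments behind any member in any library were 1426 (95% Poisson interval 1353 to 1502, counting error only), and the most were 176870.

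The most abundant member, on chromosome CM024167.1, stood at 18920, 33585 and 75521 FPKM in post-molt replicates 1, 2 and 3 and at 17340, 17075 and 15927 FPKM in the pre-molt replicates. Its post-molt values all lay above its pre-molt values, but post-molt replicate 1 by little, and the mean ratio of 2.54 rested mostly on replicates 2 and 3. The second member, on CM024164.1, stood at 20059, 31817 and 48568 FPKM in post-molt and at 23399, 19790 and 19497 FPKM in pre-molt muscle. Here the groups overlapped, with the first post-molt value among the pre-molt values. The third, on CM024102.1, stood at 18499, 33409 and 54763 FPKM and at 15032, 13789 and 13066 FPKM, without overlap. The first 2 of these genes were the only members among the first 5 of the set in every library.

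Places 4 to 10 had post-molt means of 11079 to 28690 FPKM and pre-molt means of 11160 to 23146 FPKM. Of these 7 genes, 6 were higher in every post-molt than in every pre-molt library, with mean ratios of 1.99 to 2.37. Their chromosomes were CM024154.1, CM024147.1, CM024145.1, CM024164.1, CM024097.1 and CM024096.1. Place 9 was the exception. This gene, evm.TU.CM024140.1.211, was the most abundant member in all 3 pre-molt libraries and was lower in every post-molt library.

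**Figure D1:**
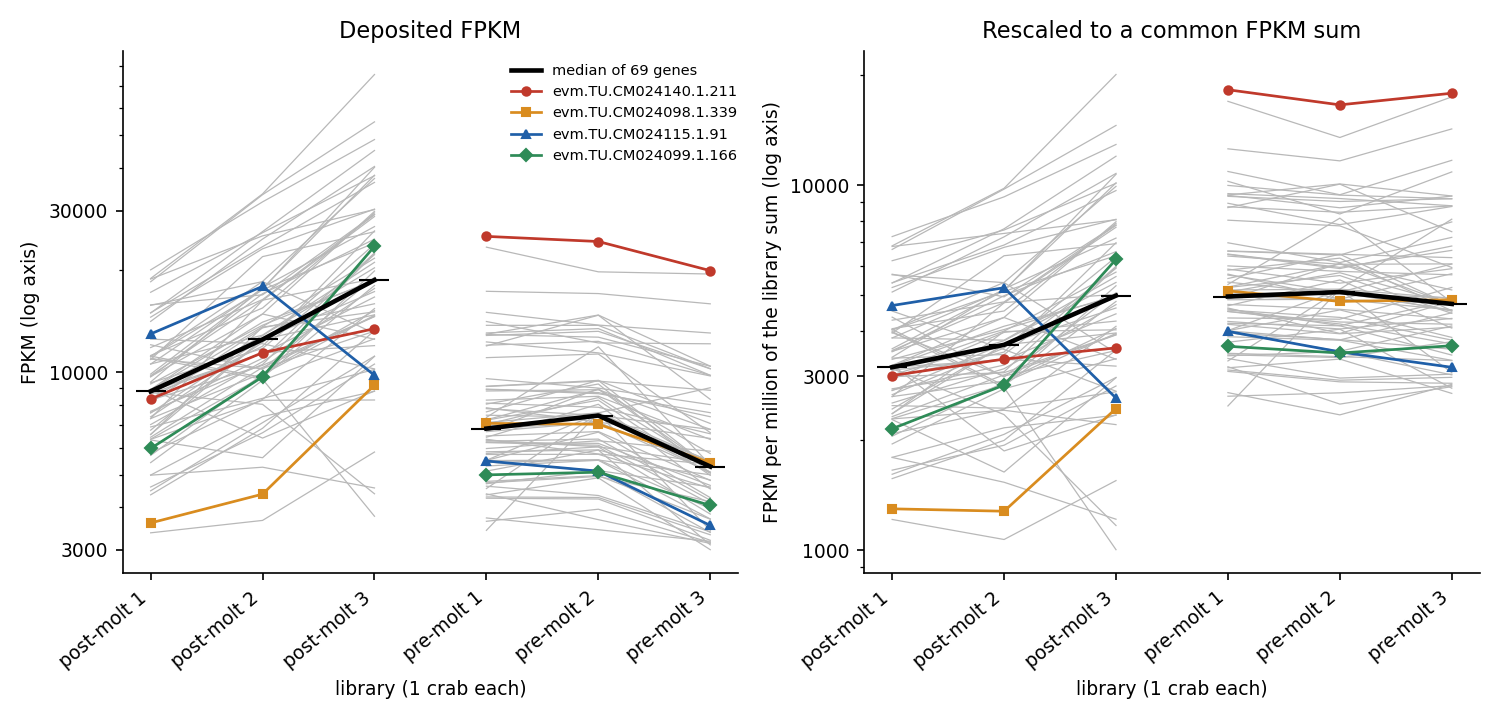
FPKM of the 69 genes in each of the 6 libraries on log axes, as deposited (left) and with every library rescaled to the same FPKM sum (right). Grey lines join the values of 1 gene within a stage, the black line joins the medians and colours mark the 4 genes named by ID. As deposited the median was 8797, 12506 and 18713 FPKM in the post-molt libraries and 6829, 7462 and 5280 FPKM in the pre-molt libraries.

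The deposited FPKM of nearly all members were higher in post-molt muscle. The mean ratio was above 1 for 66 members and below 1 for 3, and the median ratio of 2.14 (log2 ratio 1.10, quartiles 0.77 and 1.22) compared with a median of 0.97 over the 16843 tested genes with a ratio in both directions. For 45 of 69 members the ratio lay between 1.8 and 2.6. Every post-molt value lay above every pre-molt value for 54 members, where 14.2% of all tested genes did so, and every one lay below for 1 member, against 12.5% of all tested genes. Together 55 members did not overlap, where 26.7% of all tested genes did not. The rule itself fixed part of this, as it kept the ratio under 3, so nothing is read from these counts.

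On the deposited scale the shift was shared by the members but was not the same in each library. Relative to each gene's own mean over the 6 libraries, the median member stood at 0.92, 1.41 and 2.08 times that mean in post-molt replicates 1, 2 and 3, and at 0.76, 0.80 and 0.60 times in the pre-molt replicates. Post-molt replicate 3 thus stood highest and pre-molt replicate 3 lowest. Post-molt replicate 3 held the highest of the 6 values for 60 members and pre-molt replicate 3 the lowest for 62. A movement common to all members made up 75.6% of the variation of their deposited log2 FPKM over the libraries. With every library rescaled to the same FPKM sum it made up 45.1%, so part of it came with the scaling of the libraries. What remained had an SD of 0.34 on the log2 scale in both cases. Without post-molt replicate 3 the median log2 ratio was 0.73, and without post-molt replicate 1 it was 1.35.

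The direction of the shift depended on how the libraries were scaled. The deposited FPKM summed to 2772130, 3422260 and 3753650 in the post-molt libraries and to 1377500, 1463550 and 1115970 in the pre-molt libraries, so the 2 stages were not on a common sum. When each library was rescaled to the same sum, the median log2 ratio of the members turned from 1.10 to −0.27 (quartiles −0.56 and −0.13), that is, to 0.83 of the pre-molt level. The mean was then lower in post-molt for 66 members and higher for 3. Over all tested genes the same rescaling took the median from −0.04 to −1.37, since it multiplies every gene of a library by 1 factor. With TMM scaling of the recovered fragments the median log2 ratio of the members was 1.05, and with the median of all tested genes set to 0 it was 1.14. With quantile normalization the median limma log2 fold change of the members was −0.33.

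At the common sum the median member differed widely between the post-molt crabs and little between the pre-molt crabs. On the log2 scale the median member departed from its own mean by −0.54 and −0.22 in post-molt replicates 1 and 2 and by 0.20 in post-molt replicate 3, against 0.19, 0.17 and 0.16 in the pre-molt replicates. Post-molt replicate 3 was therefore level with the pre-molt libraries, and the others lay below them. Every post-molt value was below every pre-molt value for 22 members, where 55.2% of all tested genes did so, and above for 0 members, where 4.75% of all tested genes did so (59.9% in either direction). Without post-molt replicate 3 the former count was 57, where 60% of all tested genes were lower in every post-molt library. Without post-molt replicate 1 the median log2 ratio at the common sum was −0.09, and without replicate 3 it was −0.51.

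The share of the total showed the same split. The 69 genes held 40.3%, 39.6% and 39.6% of the FPKM sum in pre-molt replicates 1, 2 and 3 (mean 39.8% ± 0.409, SD, n = 3). In post-molt they held 23.8%, 28.2% and 39.4% (mean 30.5% ± 8.03, SD, n = 3). The share in post-molt replicate 3 was within 1 percentage point of every pre-molt share, and the shares of the other post-molt libraries were lower. Without post-molt replicate 3 the post-molt mean was 26.0%. By recovered fragments, which are not divided by gene length, the set held 20.1% (95% Wilson interval 20.05% to 20.12%), 23.5% (23.48% to 23.56%) and 35.2% (35.15% to 35.24%) in post-molt. The pre-molt libraries held 33.8%, 33.0% and 33.7%, with intervals as narrow. These intervals cover counting error only.

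The remainder of the sum was divided by the ratio of the stage means. That ratio chose these groups, so their shares differ between the stages by selection and nothing is read from that difference. Genes of any level with a mean more than 3 times higher in post-molt, 2111 in number, held 55.5%, 52.9% and 41.9% of the FPKM sum in post-molt replicates 1, 2 and 3 and 10.2% to 11.4% in pre-molt. Their share was thus lowest in post-molt replicate 3, where the share of the abundant genes was highest. These shares are parts of 1 sum and cannot move independently. Genes with a post-molt mean under 0.33 of the pre-molt mean, 1207 in number, held 0.609% to 0.717% after the molt, against 12.7% to 13.7% before it.

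**Figure D2:**
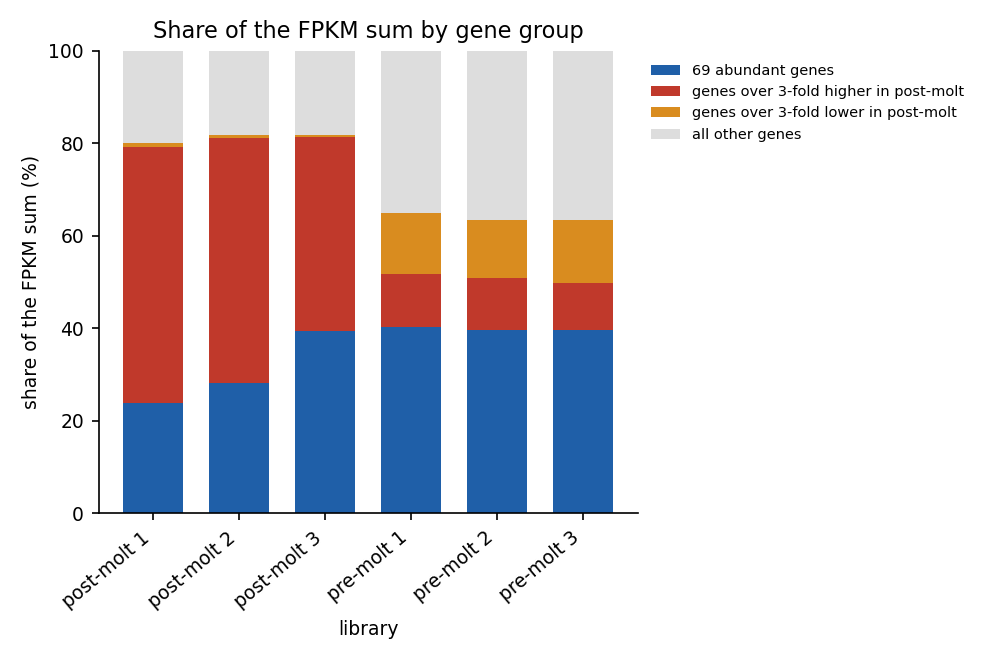
Share of the FPKM sum in each library (stacked bars, percent) held by the 69 abundant genes, by genes with a mean more than 3 times higher or under 0.33 of it in post-molt, and by all others. The abundant genes held 39.6% to 40.3% in the pre-molt libraries and 23.8%, 28.2% and 39.4% in the post-molt libraries.

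Fewer members stood at the very top of post-molt replicates 1 and 2. The rule fixed part of this, as it left out genes more than 3 times higher in post-molt and genes under 3000 FPKM in any pre-molt library. Of the 10 most abundant genes of each library, 4, 4 and 5 were members in pre-molt replicates 1, 2 and 3, and 0, 0 and 4 were members in post-molt replicates 1, 2 and 3. The number of genes at 3000 FPKM or more was 92 to 116 in the pre-molt libraries and 165 to 178 in the post-molt libraries. All members were among the first 105, 110 and 92 genes of the pre-molt libraries, but reached down to place 160, 161 and 160 in the post-molt libraries.

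The shift on the deposited scale was larger for the abundant genes than for less abundant ones within the same ratio limits. Genes whose lowest value was 1000 to 3000 FPKM (n = 39) had a median log2 ratio of 0.85, those at 300 to 1000 FPKM (n = 116) of 0.23 and those at 100 to 300 FPKM (n = 245) of 0.19. At the common sum the medians were −0.49, −1.06 and −1.11, against −0.27 for the set. The rescaling moved all 4 groups by a like amount by its construction. No test was made of this order, as the level and the ratio window define the groups.

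**Figure D3:**
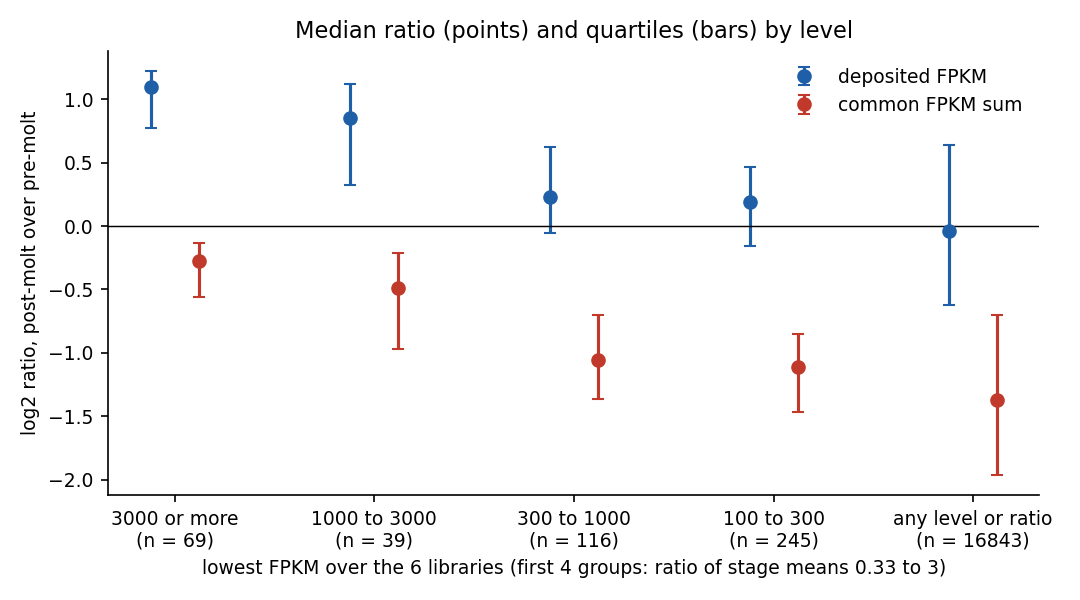
Median log2 ratio of post-molt over pre-molt means (points) with the quartiles over genes (bars), on the deposited FPKM and at a common FPKM sum, for genes grouped by their lowest FPKM and for 16843 tested genes of any level or ratio. The set of 69 genes stood at 1.10 and −0.27, and all genes at −0.04 and −1.37.

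Ranks within the set in a single library do not depend on the scaling of the libraries and show how the members moved against each other. The Spearman correlation of the stage means of deposited FPKM over the 69 genes was 0.80. Such means do depend on the scaling, and with the median rank over the libraries of a stage the correlation was also 0.80. Between single libraries it was 0.88 to 0.92 within pre-molt, 0.59 to 0.80 within post-molt and 0.64 to 0.87 between the stages, so post-molt crabs differed from each other in this order about as much as from pre-molt crabs. The points are genes of the same libraries and not independent samples. The mean rank moved by fewer than 5 places for 35 members and by 10 or more places for 13, of which 6 moved up and 7 down in post-molt. The median span of ranks over the 3 libraries of a stage was 12 places in post-molt and 6 in pre-molt, and it was wider in post-molt for 52 of 69 members.

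For 12 members the ranks did not overlap between the stages, 6 being closer to the top and 6 further down in every post-molt library. Beside this, the place in the whole table did not overlap for 31.2% of all tested genes, 12.6% being closer to the top and 18.6% further down in post-molt. Such places are counted over the whole table and not within the set, so the counts and these shares are not of like measure. Without post-molt replicate 1 the count of members was 34, and the place in the whole table did not overlap for 42.2% of all tested genes. Without any other library the count was 13 to 18, beside 36.3% to 44.5% of all tested genes. The members further down were mostly displaced by more: their mean ranks differed by 8 to 42 places, and those of the 6 genes closer to the top by 1.67 to 12 places.

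**Figure D4:**
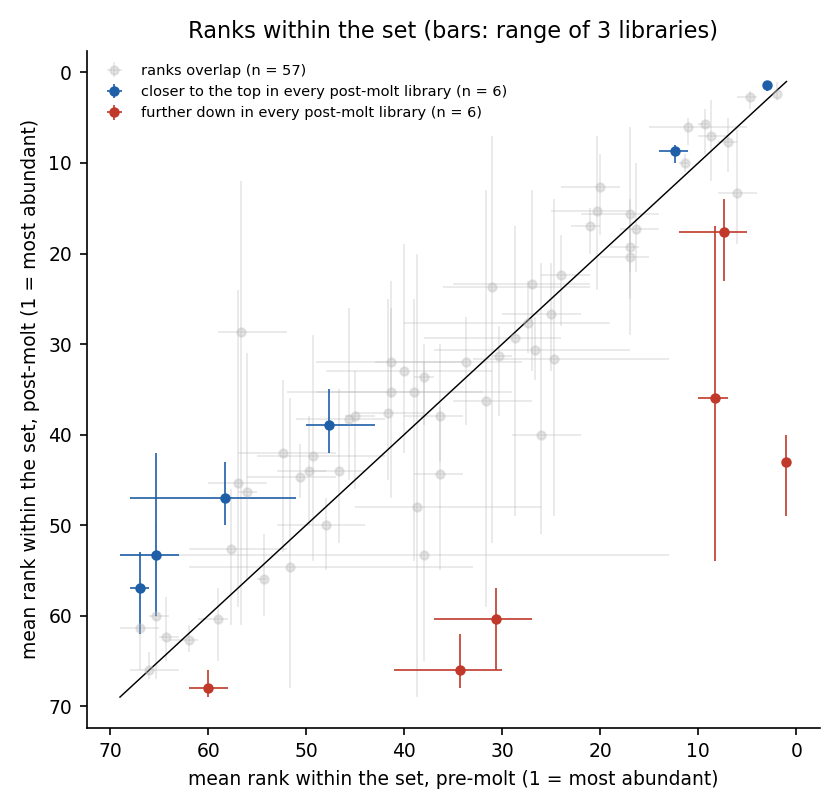
Mean rank of each of the 69 genes within the set in pre-molt (horizontal axis) and post-molt muscle (vertical axis), where 1 is the most abundant, with bars for the range over 3 libraries. Blue marks 6 genes closer to the top in every post-molt library and red 6 genes further down, of which the one at pre-molt rank 1 had a mean post-molt rank of 43.

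The largest displacement was that of evm.TU.CM024140.1.211 on CM024140.1. It stood at 8349, 11432 and 13456 FPKM in post-molt replicates 1, 2 and 3 and at 25174, 24313 and 19951 FPKM in pre-molt. The groups did not overlap on either scale. It held rank 1 of the set in each pre-molt library and ranks 40, 40 and 49 in post-molt. The mean ratio was 0.48, and at the common sum the log2 ratio was −2.41, with 3312 ± 288 per 1000000 of the FPKM sum in post-molt against 17589 ± 869 before the molt (SD, n = 3). Its values at the common sum hardly differed between the post-molt crabs, unlike those of most members.

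The next was evm.TU.CM024098.1.339 on CM024098.1, at 3600, 4378 and 9178 FPKM in post-molt and 7075, 7035 and 5421 FPKM in pre-molt. On the deposited scale the groups overlapped because of post-molt replicate 3. Its ranks were 68, 68 and 62 in post-molt and 32, 41 and 30 in pre-molt, and its log2 ratio at the common sum was −1.56. Place 68 of the set, on CM024113.1, was likewise among the 3 members with a mean ratio below 1, at 0.97. It stood at 3366, 3662 and 5825 FPKM in post-molt and 4699, 5126 and 3375 FPKM in pre-molt, and its log2 ratio at the common sum was −1.37.

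A pair of members further down in rank in every post-molt library lay at order numbers 204 and 206 on CM024102.1, with 1 listed gene in between. The former, at place 56, stood at 6321, 5605 and 11149 FPKM in post-molt and 7479, 7382 and 5485 FPKM in pre-molt. The latter, at place 21, stood at 11169, 9668 and 18037 FPKM and at 13072, 13462 and 9808 FPKM. Their mean ratios were 1.13 and 1.07, their log2 ratios at the common sum −1.16 and −1.24, and their mean ranks moved by −29.7 and −27.7 places in post-molt. The gene at order number 207 fell just outside the set, with a lowest value of 2997 FPKM and a ratio of 1.11. A further member of the chromosome, place 3 of the set at order number 191, had a ratio of 2.55. Only uniquely aligned fragments were counted, so near-identical copies, if these are such, would lose fragments, and this was not tested. The sixth member further down in post-molt, on CM024107.1 at place 13, was displaced by 10.3 places, from a mean rank of 7.33 to 17.7.

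Upward moves were mostly smaller and lay largely among the less abundant members. The largest ratio was that of evm.TU.CM024115.1.91 on CM024115.1, at 12984, 17932 and 9804 FPKM in post-molt and 5482, 5117 and 3540 FPKM in pre-molt. Its mean ratio was 2.88 and its log2 ratio at the common sum 0.24, the highest of the set. Its mean rank was 28.7 in post-molt and 56.7 in pre-molt, but in post-molt replicate 3 it held rank 61, below its rank in every pre-molt library, so the ranks overlapped. The second largest ratio, 2.78, was that of evm.TU.CM024099.1.166 on CM024099.1, at 5968, 9703 and 23534 FPKM in post-molt and 4988, 5080 and 4056 FPKM in pre-molt. This one stood high in post-molt replicate 3 alone, where its rank was 24, against ranks of 53 to 60 elsewhere.

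Among the 6 genes closer to the top in every post-molt library was the most abundant member, at ranks 2, 1 and 1 in post-molt and rank 3 in each pre-molt library. Another, on CM024097.1 at place 8, held ranks 8, 8 and 10 in post-molt and 11, 14 and 12 in pre-molt. The remaining 4 lay lower in the set, at places 44, 53, 58 and 60, on CM024097.1, CM024151.1, CM024156.1 and CM024141.1. Their mean ranks were 8.67 to 12 places closer to the top.

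Post-molt replicate 3 also held a separate group of departures from the shared shift. For 6 members it gave the lowest of the 3 post-molt values, although the median member was highest there. The clearest was place 57, a gene of 324 bases on CM024155.1, at 11015, 9545 and 3766 FPKM in post-molt and 5965, 6288 and 5858 FPKM in pre-molt. It held ranks 20 and 55 in post-molt replicates 1 and 2 and rank 69, the last, in replicate 3. Place 61, a gene of 300 bases on CM024132.1, stood at 8721, 8052 and 4387 FPKM in post-molt and 4548, 7570 and 3423 FPKM in pre-molt. These genes and places 24, 41, 42 and 69 departed from the set median of post-molt replicate 3 by −0.72 to −1.88 on the log2 scale. In post-molt replicate 1 the same genes stood 0.35 to 0.86 above it.

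The order of the members thus varied along more than the stages. After each library's set median was taken off, the first component held 57.5% of the remaining variation and weighted post-molt replicate 3 most (0.78, with weights of −0.36 to 0.29 in the other libraries). The second held 28.1% and set post-molt replicates 1 and 2 (−0.61 and −0.52) against the other 4 libraries (0.14 to 0.35). All 6 values of 20 members stayed within 0.25 of the set median on the log2 scale, and those of 48 members within 0.5. The values of 4 members departed by more than 1.0 in some library.

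**Figure D5:**
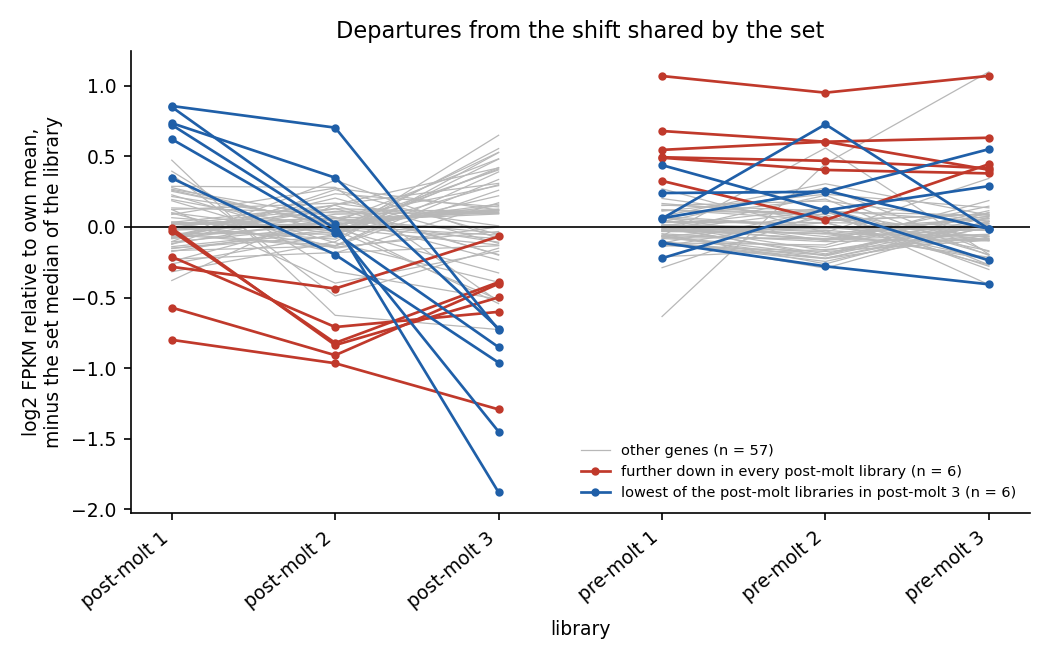
Log2 FPKM of each of the 69 genes relative to its own mean over the 6 libraries, minus the set median in that library, so that 0 marks a gene that moved as the set did. Red marks 6 genes further down in rank in every post-molt library and blue 6 genes whose lowest post-molt value was in replicate 3, where they departed by −0.72 to −1.88 from the set median.

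The members were steadier between pre-molt crabs than between post-molt crabs. The median coefficient of variation over 3 libraries was 15.5% in pre-molt and 39.7% in post-molt FPKM, and 8.04% and 29.4% at the common sum. At the common sum 65 of 69 members varied more in post-molt. For the 17396 other tested genes the medians at the common sum were 37.2% in pre-molt and 49.6% in post-molt, values that include the larger counting error of low genes. The 3 members with the smallest variation over all 6 libraries at the common sum were places 7, 44 and 51, with coefficients of variation of 12.8%, 14.6% and 14.6%. Place 7, on CM024164.1, stood at 7409 ± 624 per 1000000 of the FPKM sum in post-molt against 9136 ± 397 before the molt (SD, n = 3), with a log2 ratio of −0.30, close to the set median.

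Most members were short. Lengths recovered from the FPKM ran from 265 to 2688 bases with a median of 711, against a median of 1149 over the whole table, and 55 of 69 members were below that median. FPKM divide by length, so a short gene needs fewer fragments to reach the limit of the rule, and the length of the members is in part set by it. The 20 members longer than 1000 bases had a median log2 ratio of −0.45 at the common sum and the 49 shorter ones of −0.24. The members were spread over 44 chromosomes or scaffolds of the 91 in the table. CM024131.1 held 5 and CM024096.1 held 4, and no other held more than 3. On CM024131.1 the genes at order numbers 204 and 205 were direct neighbours, with log2 ratios of 0.99 and 1.15 on the deposited scale. On CM024096.1 the genes at 143 and 147, with 2 listed genes in between, had log2 ratios of 1.10 and 0.99.

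The limits of the rule cut through a continuous range. The 3 members nearest the level limit had lowest values of 3002, 3102 and 3133 FPKM, and the nearest genes below it 2997, 2988 and 2884 FPKM. The largest ratios in the set were 2.88, 2.78 and 2.67, and the genes just beyond the limit had ratios of 3.01, 3.11 and 3.27. The nearest of these, on CM024113.1, averaged 68012 FPKM after the molt and 22600 FPKM before it, with a higher mean over the 6 libraries than any member. In all, 8 genes met the level limit with a ratio above 3, and 0 with a ratio below 0.33. They held 13.5% ± 3.53 (SD, n = 3) of the FPKM sum after the molt and 9.30% ± 0.776 before it. Another 5 genes met the level limit on the chromosomes left out. At the low end the smallest ratios were 0.48, 0.88 and 0.97, far from the limit.

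In the limma fit over all 17465 tested genes, 1 of the 69 members was called different between the stages, where 7.54% of all tested genes were called. A call needed an absolute log2 fold change of at least 1 together with a limma p of at most 0.05 after Benjamini-Hochberg adjustment. The called gene was higher in post-molt, as were 5.93% of all tested genes, and 0 members were called lower, as were 1.6% of all tested genes. At an unadjusted p of 0.05 or less the limma fit held 45 members, where it held 20.9% of all tested genes.

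The called gene was evm.TU.CM024115.1.91, with a limma log2 fold change of 1.51 (SE 0.36). Its limma adjusted p was 0.037, and over its alternatives the adjusted p ran from 0.00014 to 0.60. It was higher in 3 of 3 post-molt libraries, but the call ended without post-molt replicate 1 (limma adjusted p = 0.069) or 2 (0.13) and without pre-molt replicate 1 (0.13), 2 (0.11) or 3 (0.15). It also ended at the common sum, where the limma log2 fold change was 0.18 (adjusted p = 0.60), and with quantile normalization, where it was 0.31 (0.60). With a pseudocount of 0.1 the limma adjusted p was 0.058, and with the replicate block 0.085. For evm.TU.CM024140.1.211 the limma log2 fold change was −1.08 (SE 0.34, adjusted p = 0.10, running from 1.6e-05 to 0.37 over its alternatives). It was lower in 3 of 3 post-molt libraries.

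The number of members called depended on the scale and the tool. At the common sum limma called 5 members lower, those at places 9, 21, 56, 62 and 68, and 0 higher, where 33.7% and 3.44% of all tested genes were called in those directions (37.2% in all). On recovered fragments edgeR called 12 members higher and 0 lower, where 12% and 3.43% of all tested genes were (15.5% in all). DESeq2 called 37 members higher and 1 lower, where 9.12% and 1.92% of all tested genes were (11% in all). Since the ratio window removed the genes with the largest changes and the level chose the best measured ones, nothing is read from these counts.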

How the data were processed

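Muscle RNA of 6 crabs, 3 per stage, was sequenced, and libraries were grouped and numbered by their titles. By the submitters' processing notes and the methods of the study, HISAT2 2.0.5 aligned the reads and featureCounts 1.5.0-p3 counted uniquely aligned fragments. The sources used here do not give the strand setting. The authors deposited FPKM for 18729 genes. A table of their comparison was deposited too, holding a normalized signal (fragment counts over a size factor) per library and gene lengths. Its log2 fold changes and p-values, as the authors deposited them, were not used. The deposited FPKM columns carry another tissue prefix than the labels but match the comparison's columns of the same stage letter and number, once gene length and a constant per library are divided out.

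Normalized values were whole multiples of 1 step in 100% of cases. For genes without a listed length, the smallest whole length that made every value whole (tolerance 0.001) was taken. In all, 100% of FPKM values gave whole fragments, which was fixed in advance for the genes without a listed length. Of 1684 known lengths, 98.6% were recovered exactly and 22 came back as a fraction of the listed length. The library size behind the FPKM was 0.280 to 0.344 of the fragment total for post-molt libraries and 0.633 to 0.819 for pre-molt libraries, so the FPKM do not share a sum. The common sum was 1000000 per library.

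The set and its gene groups were chosen with earlier results of these data known. Named genes were the 10 most abundant, those with the largest and smallest ratios (IDs for 2 each), the largest rank moves, the steadiest and those at the limits of the rule. Members described for the lowest value in post-molt replicate 3 and as neighbours were chosen after their values were seen.

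limma 3.58.1 (R 4.3.3) was fitted on log2(FPKM + 1) with an intensity trend, group being the only term. It covered the 17465 genes whose FPKM averaged at least 0.5. Both the limma fit and the recovery of lengths were tried on simulated data. For limma, the simulated FPKM used the fragment total as library size and a single dispersion for all genes and stages. They therefore do not test the unequal FPKM sums or the wider spread between post-molt crabs. As alternatives, the recovered fragments were tested with edgeR 4.0.16, calling 1565 genes, and with DESeq2 1.42.0, calling 1665. Other alternatives were scalings, pseudocounts, filters, variance settings, a replicate block, other limits of the rule and leaving out each library. P-values set the difference between the stages against the spread between these crabs. In limma that spread is moderated over all genes and taken as equal in both stages, though it was wider between the post-molt crabs.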

Additional observations from a re-analysis of the deposited data

How the results depend on the processing

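The number of genes in the set was 37 when the limits were applied to FPKM at a common sum of 1000000 per library (32 of them members) and 38 with a minimum of 5000 FPKM. It was 83 at a common sum equal to the mean FPKM sum (63 shared), an alternative chosen after seeing the data, and 58 to 84 without 1 library. The members' share of the total moved to 46.4% in post-molt and 45.1% in pre-molt when genes at the minimum in 1 stage only were left out of the sum, and to 33.5% in pre-molt by fragments. Leaving out 1 library gave 26.0% to 33.8% after the molt and 39.6% to 40.0% before it. The median log2 ratio turned to −0.27 at the common sum, where every gene of a library is multiplied by 1 factor. On the deposited scale it was 0.73 to 1.35 without 1 library. Leaving out 1 library, chosen after seeing the data, gave 22 to 57 members below all pre-molt values at the common sum. Beside this, 57.8% to 65.7% of all tested genes were below. Members whose ranks did not overlap numbered 13 to 34 without 1 library. The place in the whole table, an unlike measure, did not overlap for 36.3% to 44.5% of all tested genes. Members called numbered 5 at the common sum (all lower), beside 37.2% of all tested genes, and 6 with quantile normalization (all lower), beside 9.05%. With array weights they numbered 6, beside 12.6% of all tested genes. With edgeR on the recovered fragments they numbered 12 with or without a filter, beside 15.5% and 11.8% of all tested genes. DESeq2 called 38, beside 11% of all tested genes. With a pseudocount of 0.1 limma called 0 members, beside 7.04% of all tested genes (38 at an unadjusted p under 0.05, beside 20.0%). Without 1 library limma called 0 to 11 members, beside 4.49% to 8.08% of all tested genes. Where limma called 0, 7 to 17 members had an unadjusted p under 0.05, beside 14.4% to 21.9%. All genes called numbered 6490 at the common sum, 2200 with array weights, 2214 with unfiltered edgeR and 783 to 1406 without 1 library, the lowest without pre-molt replicate 1 (783) and 3 (803). The limma log2 fold changes of 14 named members turned negative both at the common sum and with quantile normalization. At the common sum they were −0.21, −0.73, −0.11, −0.22, −0.37, −0.15, −0.30, −0.25 and −0.39 at places 1 to 8 and 10, and −0.085, −0.19, −0.24, −1.20 and −0.15 at places 43, 44, 51, 56 and 58. With quantile normalization they were, in the same order, −0.38, −0.85, −0.19, −0.16, −0.41, −0.20, −0.42, −0.27 and −0.45, then −0.11, −0.16, −0.21, −1.23 and −0.14. Of these, only place 56 was called, under both. Place 56 was also at −0.12 with array weights and between −0.17 (without post-molt replicate 3) and 0.32 without 1 library, including −0.02 without pre-molt replicate 3. Otherwise the cause was not tested.

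The shared replicate numbers did not pair the libraries, since the deviations from the stage means had correlations of −0.03, −0.03 and −0.05 between libraries of the same number. With the replicate block limma called 0 members and 1003 genes, or 5.74% of all tested genes. At an unadjusted p under 0.05 that limma fit held 18 members, beside 19.0% of all tested genes. With 3 crabs per stage, post-molt replicate 3 decided several values above. Of 323 values of single genes under an alternative, 257 kept their direction and their side of the threshold, and 31 turned direction, whether called or not. Among those that kept their direction, 26 came to be called and 9 were no longer called.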
